A study of Mus musculus with 6 samples.

Results

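The signatures described here were counted throughout the fibroblast line BLK.CL4 and weakly, or in only some libraries, in mouse liver. A signature is the 20 bases that massively parallel signature sequencing (MPSS) reads from a cDNA at its DpnII site nearest the 3' end, and its count is the number of microbeads that carried it. The signatures were chosen by their measured counts in both groups: at least 10 CPM (counts per mega-count of the library total) in each of the 3 BLK.CL4 libraries, a count above 0 in at least 1 of the 3 liver libraries, and under 10 CPM in at least 1 liver library. The rule was met by 2442 signatures, which is 3.52% of the 69349 listed in any library and 59.0% of the 4138 with at least 10 CPM in every BLK.CL4 library. Of the remaining signatures of those 4138, 751 were never counted in liver and 945 reached 10 CPM in each liver library. Since the rule uses the levels in both groups, the levels and ratios below are a description, and no test between the groups is read from them.

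The study compared total RNA of BLK.CL4, a fibroblast line from C57BL/6 mouse embryo, with total RNA of liver, both of strain C57BL6 per the labels, with no treatment, age or sex stated. Each group had 3 libraries, each sequenced in 4 runs, and the labels do not state if separate cultures or animals were used for them. Replicates are numbered here in accession order and the numbers pair nothing. Library totals were 1890287 to 2187783 counts in BLK.CL4 and 1724799 to 2440849 counts in liver, so that 10 CPM corresponded to 17.2 to 24.4 counts and 3 counts to 1.23 to 1.74 CPM. Liver replicate 1 listed the fewest signatures (8621, against 14332 and 17721 in the other liver libraries and 19686 to 31506 in BLK.CL4). No transcript sequence was used here, so the signatures carry no gene names, and the labels of the groups could not be checked against marker genes.

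Fibroblasts are cells of connective tissue that secrete and remodel extracellular matrix, and a line in culture divides and keeps a large cytoskeleton. Liver is mostly hepatocytes, which devote much of their mRNA to secreted plasma proteins and to metabolism, with smaller numbers of endothelial cells, macrophages, bile duct cells and stellate cells, the last being matrix-producing cells of mesenchymal type. A transcript abundant in fibroblasts can therefore be present in whole liver through a minority of its cells. In whole-tissue RNA such a low level may stand for few cells with much of the transcript or many cells with little, and these cannot be told apart.

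The signatures on which the description turns are printed 5' to 3' with the DpnII site GATC in capitals, because the sequence is the only identity the files give. The 5 with the highest mean BLK.CL4 level were:
B1: GATCcaactaagtctcctcc
B2: GATCgagctcagaggcgaag
B3: GATCaatgagacttctcagc
B4: GATCctggtgtccttgaccg
B5: GATCgtgcccgccaccctgc
The 5 with the highest mean liver level were B5 and these 4:
L1: GATCtgagttcagaccggac
L2: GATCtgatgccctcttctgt
L3: GATCaaattcccactgcccc
L4: GATCtgttcttgctcattta
The 5 with the largest ratio of the mean BLK.CL4 to the mean liver level were B3 and these 4:
R1: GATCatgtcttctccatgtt
R2: GATCtttcagggctctctgg
R3: GATCtgtgtgagagagaagt
R4: GATCtttggcaccattggaa
Among signatures counted in all 3 liver libraries, those with the largest ratio were B1 and these 4:
A1: GATCcaagccagctatctct
A2: GATCtgtggagaagatgatt
A3: GATCttcctaggtatcttgt
A4: GATCcttgcccagcggtggg
The 5 with the smallest ratio were L1 and these 4:
S1: GATCcagaaaacatgggctc
S2: GATCattttggtatgtcctt
S3: GATCttcccgttggccgccc
S4: GATCagaaaggaagggatgg

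The signatures with the highest BLK.CL4 levels had liver levels that differed among themselves more than their BLK.CL4 levels did. B1 stood at 7879, 10293 and 3319 CPM in BLK.CL4 replicates 1, 2 and 3 and at 94.5, 44.9 and 1.64 CPM in the liver replicates. Its BLK.CL4 mean was 7164 ± 3541 CPM and its liver mean 47.0 ± 46.5 CPM (mean ± SD, n = 3 each, as throughout), a 152-fold ratio. B1 was thus counted in every liver library, but its liver level rested on replicates 1 and 2. B2 had 4567, 7410 and 1880 CPM in the line and was counted in liver in replicate 2 alone, at 15.5 CPM (31 counts). B3, the most even of the 5 in BLK.CL4, stood at 3945, 3578 and 4751 CPM there. In liver it had 0 counts in replicate 1 and 4.49 and 2.05 CPM in replicates 2 and 3, which makes 14 counts in all and a ratio of 1877. B3 and B2 were therefore the most unequal of the 5, with ratios of 1877 and 896.

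B4 and B5 shared a liver pattern in which replicate 1 had no count and replicate 3 had the most. BLK.CL4 levels of B4 were 4129, 2173 and 4696 CPM, and its liver levels 0, 6.99 and 33.2 CPM, a 274-fold ratio. For B5 they were 3025, 1997 and 3344 CPM, and 0, 87.3 and 372 CPM, an 18.2-fold ratio. The liver level of B5, 153 ± 194 CPM, was the third highest of the whole set, and it entered the set only because of the missing count in replicate 1.

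As a set, the signatures made up a large and even part of the BLK.CL4 RNA and a small, uneven part of the liver RNA. Together they held 26.3%, 25.7% and 26.2% of the counts in the BLK.CL4 replicates and 1.90%, 2.66% and 4.72% in the liver replicates. Summed CPM were 260650 ± 3124 in BLK.CL4 and 30966 ± 14594 in liver, an 8.42-fold ratio, or 3.07 on the log2 scale. The BLK.CL4 values lay within a few percent of each other, whereas the highest liver value, in replicate 3, was well above the others.

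The word weak covers only part of the set. In 911 signatures (37.3%) all 3 liver libraries were under 10 CPM, and their median liver level was 1.64 CPM. In 840 (34.4%) 1 liver library reached 10 CPM, with a median liver level of 8.57 CPM, and in 691 (28.3%) 2 did, with a median of 21.2 CPM. Of the set, 1531 signatures (62.7%) thus reached in some liver library the level asked of every BLK.CL4 library, and 78 reached 100 CPM. The group with no liver library at 10 CPM held 7.12% ± 0.519 of the BLK.CL4 counts and 0.186% ± 0.0712 of the liver counts. The group with 2 such libraries held 10.7% ± 0.619 and 2.03% ± 0.890.

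The 3 liver libraries contributed unequally. Counts above 0 were found for 1170 of the 2442 signatures in replicate 1, 1774 in replicate 2 and 2016 in replicate 3, and at least 10 CPM for 478, 641 and 1103. Where counted, the median level was 7.54, 6.99 and 12.1 CPM. Replicate 3 was the most deeply sequenced liver library and replicate 1 the least, and the part of depth in these numbers was not tested. All 3 libraries counted 762 signatures (31.2%), 2 counted 994 (40.7%) and only 1 counted 686 (28.1%). An exact binomial 95% interval for the last share, 26.3% to 29.9%, takes signatures as independent draws, which they are not. It leaves out the differences between libraries. The commonest pattern with a missing library was replicates 2 and 3 together, with 681 signatures, against 215 for replicates 1 and 3 and 98 for replicates 1 and 2.

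**Figure D1:**
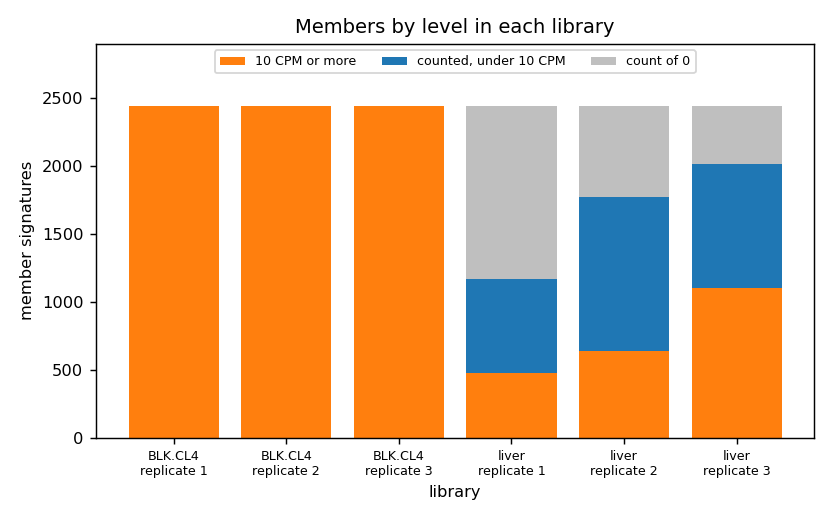
Number of the 2442 signatures (vertical axis) at 10 CPM or more, counted below 10 CPM, or with a count of 0 (colours) in each of the 6 libraries (horizontal axis). All are at 10 CPM or more in BLK.CL4 by the rule, and a count of 0 was found for 1272, 668 and 426 in liver replicates 1, 2 and 3.

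Some signatures were absent from a liver library although the other liver libraries counted them well. At least 10 CPM in replicates 2 and 3 together with a count of 0 in replicate 1 was found for 218 of them. The same held for 62 with replicate 2 as the missing library and for 16 with replicate 3. A count of 0 allows up to 3 counts, or 1.74 CPM in replicate 1, for counting error only. Among all signatures of the series with at least 10 CPM in liver replicates 2 and 3, 22.7% of 2891 had a count of 0 in replicate 1, against 8.35% of 2478 and 5.30% of 2170 for replicates 2 and 3 as the missing library. In BLK.CL4 these shares were 5.90% to 6.53%. Counts of 0 in liver replicate 1 beside 10 CPM in the others were thus found across the series.

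Correlation of levels within the set was higher among BLK.CL4 libraries than among liver libraries. The Spearman correlation across the 2442 signatures was 0.521 to 0.656 between BLK.CL4 libraries and 0.0360 to 0.231 between liver libraries. Over all 4138 signatures with 10 CPM in every BLK.CL4 library the values were 0.610 to 0.736 in BLK.CL4 and 0.621 to 0.709 in liver. The low liver values within the set go with the rule, which asks for a low value in at least 1 liver library and so takes out the signatures high in all. These correlations are across signatures, which share libraries and are not independent replicates.

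Liver levels were higher where BLK.CL4 levels were higher, but far less than in proportion within the set. The median liver level was 3.56 CPM for 140 signatures with a mean BLK.CL4 level of 10 to 20 CPM, 4.38 CPM for 336 at 20 to 30 CPM and 5.97 CPM for 622 at 30 to 50 CPM. It was 8.41 CPM for 725 at 50 to 100 CPM, 10.2 CPM for 383 at 100 to 200 CPM, 14.1 CPM for 182 at 200 to 500 CPM and 17.0 CPM for 54 at 500 CPM or more. Each class overlapped its neighbours widely: the middle 50% of signatures ran from 3.28 to 17.0 CPM at 50 to 100 CPM and from 4.60 to 21.2 CPM at 100 to 200 CPM. The Spearman correlation between the mean levels was 0.289 over the 2442 signatures, and the slope of log2 liver level on log2 BLK.CL4 level was 0.443. With each liver library taken alone, the Spearman correlation was 0.113, 0.169 and 0.235 for replicates 1, 2 and 3. Among signatures with no liver library at 10 CPM it was 0.0986, and among those with 2 it was 0.291.

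The rule itself keeps the lowest liver library of each signature in the set under 10 CPM, but sets no limit on its mean liver level. Over all 4138 signatures with 10 CPM in every BLK.CL4 library, whatever their liver level, the median liver level rose from 1.63 CPM at 10 to 20 CPM to 8.89 CPM at 50 to 100 CPM and 176 CPM at 500 CPM or more. The ratio of the median BLK.CL4 level to the median liver level then stayed within 6.32 and 10.6 in the 7 classes, and the Spearman correlation was 0.413. Within the set, by contrast, the median ratio rose from 4.85 in the lowest class to 8.0 at 50 to 100 CPM, 18.9 at 200 to 500 CPM and 58.0 at 500 CPM or more. At high BLK.CL4 levels most signatures had 10 CPM in every liver library and so fell outside the set.

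**Figure D2:**
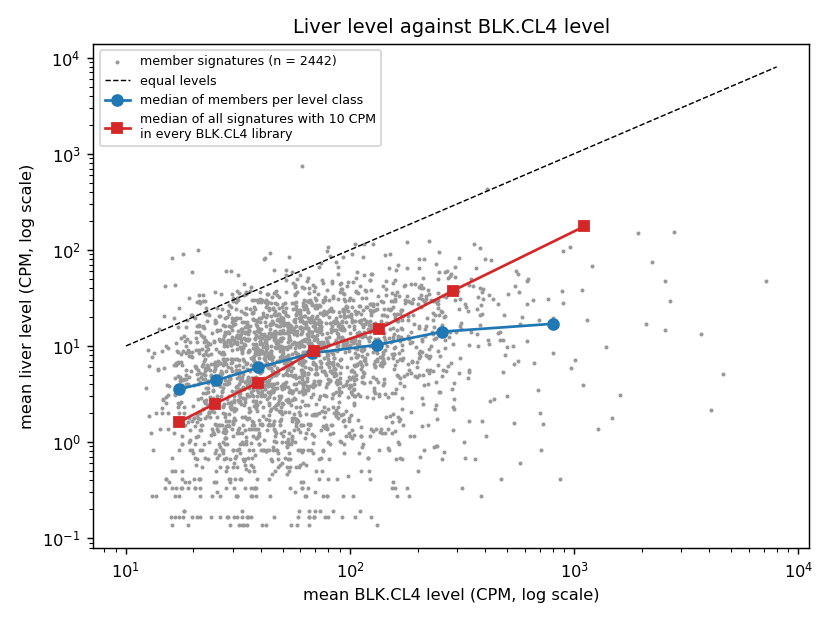
Mean liver level against mean BLK.CL4 level (both CPM, log scales) of the 2442 signatures (grey), with the median per class of BLK.CL4 level for these signatures (blue) and for all 4138 with 10 CPM in every BLK.CL4 library (red), each drawn at the median BLK.CL4 level of its class. The blue medians rise from 3.56 to 17.0 CPM and the red ones from 1.63 to 176 CPM, and the dashed line marks equal levels.

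The share of signatures that fell into the set depended on the BLK.CL4 level. It was 63.1% of 222 signatures at 10 to 20 CPM, 69.0% of 902 at 30 to 50 CPM, 64.3% of 1128 at 50 to 100 CPM, 41.9% of 434 at 200 to 500 CPM and 21% of 257 at 500 CPM or more. The share with no liver count fell over the same classes from 29.3% to 8.17%, and the share with 10 CPM in all liver libraries rose from 7.66% to 70.8%. Within the set, the share counted in only 1 liver library was 47.1% in the lowest class and 14.8% in the highest. The share counted in all 3 did not rise throughout: it was 17.9% in the lowest class, 40.1% at 200 to 500 CPM and 29.6% in the highest. Over the 4138 signatures, having any liver count thus went with the level in the line. Levels below 1.23 to 1.74 CPM may go uncounted at these depths, and the part of depth in the shares was not tested.

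**Figure D3:**
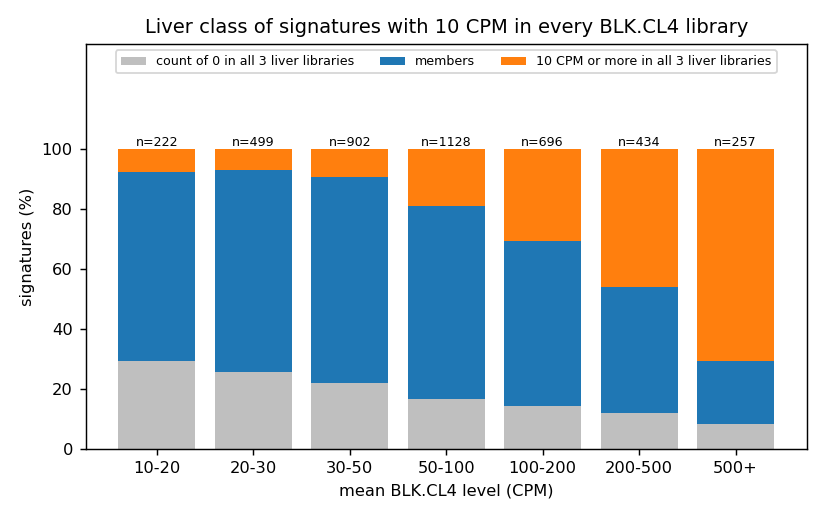
Share (percent, vertical axis) of the signatures with 10 CPM in every BLK.CL4 library that had no liver count, belonged to the set described, or had 10 CPM in every liver library (colours), by mean BLK.CL4 level (horizontal axis), with the number per class above each bar. The set makes up 63.1% of the lowest class and 21% of the highest.

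The ratios of BLK.CL4 to liver level spread over more than 4 orders of magnitude. The median ratio of mean CPM was 8.83, the middle 50% lay between 3.88 and 24.4, and the extremes were 0.0824 and 2099. A ratio of 2 to 5 was the commonest class, with 593 signatures (24.3%), followed by 5 to 10 with 502 and 10 to 20 with 432. Ratios of 100 to 500 were found for 154 signatures and of 500 or more for 20. The median ratio was 28.8 for signatures counted in 1 liver library, 7.88 for those counted in 2 and 4.70 for those counted in all 3.

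Scaling moved these ratios toward liver by unequal amounts. TMM scaling, which sets library sizes so that most signatures show no difference between libraries, raised effective BLK.CL4 sizes to 1.61 to 1.72 times and lowered liver sizes to 0.475 to 0.744 times the library totals. It shifted the median member by 1.43 on the log2 scale, or 2.70-fold, toward liver. The order changed too: R1 went from 2099 to 932, B3 from 1877 to 600 and R2 from 1408 to 631, so that R2 passed B3. The median ratio became 3.22, with the middle 50% from 1.42 to 9.02, and the ratio of the summed levels became 3.09. Ratios under 1 were found for 51 signatures (2.09%) by CPM and for 375 (15.4%) with TMM scaling. The direction of a ratio near 1 therefore depends on the scaling.

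**Figure D4:**
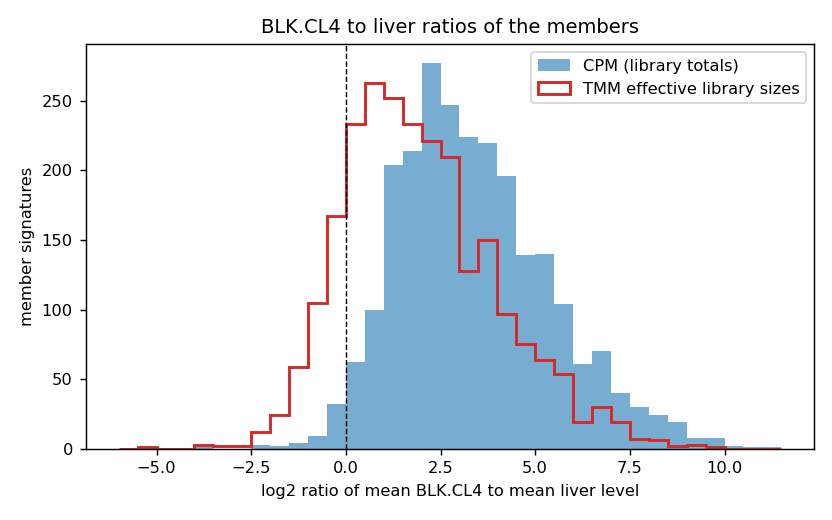
Number of signatures (vertical axis) by the log2 ratio of mean BLK.CL4 to mean liver level (horizontal axis), by CPM (filled) and with TMM scaling (red line). The median lies at a ratio of 8.83 by CPM and 3.22 with TMM scaling, and the dashed line marks equal levels.

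The largest ratios rested on very few liver counts. R1 had 658, 766 and 1156 CPM in the line and 3 counts in liver, all in replicate 3, which gives a ratio of 2099 with a 95% interval of 718 to 10180 from the exact Poisson error of the liver count alone. R2 had 335, 564 and 255 CPM in the line with 2 liver counts, a ratio of 1408 (interval 390 to 11629). R3 had 371, 927 and 122 CPM with 3 liver counts, a ratio of 1155 (interval 395 to 5601). R4 had 107, 104 and 185 CPM with 1 liver count, a ratio of 966 (interval 173 to 38160). A signature that differed from R4 only at position 20 had 12 liver counts, all in replicate 3, and 170 counts in BLK.CL4 against 820 of R4. Its part in the ratio of R4 was not tested. The liver counts of R1 to R4 were all in replicate 3, each in 1 run, and the intervals of these ratios overlap, so that their order is not established.

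Of the 20 signatures with a ratio of 500 or more, 12 had 1 to 3 liver counts in all, and of the 154 with a ratio of 100 to 500, 87 had. In the whole set 154 signatures (6.31%) had 1 to 3 liver counts, 50 of them a single count, and the median was 46 counts. B3, with 14 liver counts, had the largest ratio of those named with more than 3 counts (95% interval 1119 to 3433). A TMM-scaled ratio of 600 was found for B3 and of 932 for R1.

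Among signatures counted in all 3 liver libraries the largest ratios were smaller. A1 had 376, 482 and 112 CPM in the line and 2 counts in each liver library, or 1.16, 0.998 and 0.819 CPM, a ratio of 326 (interval 150 to 888). A2 was even in BLK.CL4, at 903, 1072 and 922 CPM, and stood at 6.38, 10.5 and 0.819 CPM in liver, a ratio of 164 (interval 117 to 237). A3 had 364, 839 and 117 CPM in the line, with 1.74, 3.49 and 3.28 CPM in liver, a ratio of 155. In each of these the lowest BLK.CL4 library lay far above the highest liver library. A4 had 2153, 3005 and 1110 CPM in the line, with 3.48, 12.5 and 34.8 CPM in liver, a ratio of 123.

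At the other end stood 51 signatures with a higher mean CPM in liver than in the fibroblast line. Of these, 33 were counted in 2 liver libraries, 17 in all 3 and 1 in a single one. The 5 with the smallest ratio, L1 and S1 to S4, each had a count of 0 in 1 liver library and far over 10 CPM in the others. L1 had 90.5, 64.3 and 27.9 CPM in the BLK.CL4 replicates, with 0, 2105 and 113 CPM in liver, so that its mean was 12.1-fold higher in liver, and liver replicate 2 alone held 4219 of its 4494 liver counts. Without liver replicate 2, L1 would stand at 0 and 113 CPM in liver, which overlaps its BLK.CL4 levels. S1 was low and even in BLK.CL4, at 14.8, 18.5 and 14.6 CPM, and stood at 0, 110 and 139 CPM in liver, a 5.19-fold higher mean there. S2 had 13.8, 10.2 and 30.2 CPM in the BLK.CL4 replicates, with 0, 52.4 and 220 CPM in liver, a 5.02-fold higher mean.

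S3 differed from these in missing replicate 2 instead of replicate 1. It had 19, 21 and 22.9 CPM in the BLK.CL4 replicates, with 152, 0 and 146 CPM in liver. S4 had 22.7, 13.2 and 23.3 CPM in the line, with 0, 62.4 and 113 CPM in liver. With TMM scaling the liver mean of L1 was 42.0-fold higher and those of S1 to S4 8.06-fold to 14.6-fold higher. The groups overlapped for each of L1 and S1 to S4 because of the liver library at 0. In no signature of the set were all 3 liver libraries above all 3 BLK.CL4 libraries, which the rule itself excludes.

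L2, L3 and L4 combined high liver levels with levels in BLK.CL4 of the same order or above. L2 had 578, 365 and 275 CPM in the BLK.CL4 replicates, with 0, 825 and 470 CPM in liver, a ratio of 0.941 by CPM and 0.306 with TMM scaling. L3 had 2167, 945 and 2642 CPM in the line, with 0, 142 and 312 CPM in liver, a ratio of 12.7. L4, counted in every library, had 182, 157 and 336 CPM in the line, with 5.22, 50.4 and 319 CPM in liver, a ratio of 1.80 by CPM and 0.739 with TMM scaling. The liver range of L4 overlapped its BLK.CL4 range through replicate 3.

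Across the whole set, the lowest BLK.CL4 library lay above the highest liver library for 1790 signatures (73.3%) by CPM and for 1109 (45.4%) with TMM scaling. The shares were 42.2% and 29.8% over all 9115 signatures tested, and 71.2% and 48.4% over the 4138 with 10 CPM in every BLK.CL4 library. The rule used these levels, so nothing about the set is read from these shares or from the calls that follow, which are printed only beside their background. In edgeR's quasi-likelihood test over the 9115 signatures that reached 10 CPM in 2 or more libraries, 209 of the set (8.56%) passed as higher in BLK.CL4 at a Benjamini-Hochberg adjusted p under 0.05, where 15.1% of all tested signatures did. None passed as higher in liver, where 14.9% of all did (1359, against 1373 higher in BLK.CL4). At an unadjusted p under 0.05 edgeR gave 3 of the set as higher in liver, against 1689 of all 9115. DESeq2 called 1 of the set as higher in liver, against 1691 of all 9115. Scaled by library totals instead, 651 of the set (26.7%) passed as higher in BLK.CL4 against a background of 25% (2283, with 1048 higher in liver), and with DESeq2 599 (24.5%) did against 22.7%. Without BLK.CL4 replicates 1, 2 or 3 the number was 91, 111 or 132 (3.73%, 4.55% and 5.41%, against 12.6%, 14.8% and 15.9% of all). Without liver replicate 3 it was 359 (14.7%, against 10.6%). With no filter 138 of the set passed (5.65%, against 0.845% of all), with signatures seen in at least 2 runs 317 (13.0%, against 9.34%), and with libraries paired by code letter as a block 275 (11.3%, against 7.42%). Against all tested signatures, the share in the set thus lay below or above according to the setting. Against the 4138 signatures with 10 CPM in every BLK.CL4 library, it lay below in each setting above. The shares of those 4138 were 24% in the edgeR test with TMM scaling, 38.6% with library totals, 34.8% with DESeq2 and 12.5% with no filter. The set is part of those 4138 and was chosen by its liver levels, so nothing is read from this either. Without liver replicate 1, 13 of the 2442 in the set passed as higher in liver, against 1252 of all 8657 tested. The median fitted log2 fold change was -1.50 in the set, -1.47 over the 4138 signatures with 10 CPM in every BLK.CL4 library and -0.60 over all signatures tested, where negative values are higher in BLK.CL4.

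Within BLK.CL4 the signatures varied between libraries about as much as other signatures of the line. The median coefficient of variation over the 3 libraries was 0.446 in the set, 0.455 in the 751 signatures with no liver count and 0.423 in the 945 with 10 CPM in all liver libraries. The highest BLK.CL4 library exceeded the lowest by a median of 2.42-fold, by no more than 2-fold in 851 signatures and by over 10-fold in 33. Replicates 1, 2 and 3 were the highest BLK.CL4 library for 695, 865 and 882 signatures. In liver the highest library was replicate 3 for 1303 signatures, replicate 2 for 678 and replicate 1 for 461.

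The base composition of the set was much like that of the rest of the line's signatures. The 16 bases that follow GATC held 49.9% G or C on average, against 51.0% in the signatures with no liver count and 51.4% in those with 10 CPM in all liver libraries. The dinucleotide CG occurred in 798 signatures (32.7%), against 35.2% and 36.1%. The hexamer AATAAA, the main form of the polyadenylation signal, was present in 7, the pentamer ATTTA, the core of AU-rich elements that mark unstable mRNAs, in 13, and a run of 6 adenines in 12. All motifs were searched on the printed strand only. Across all 4138 signatures with 10 CPM in every BLK.CL4 library these motifs were found in 13, 24 and 21.

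Counts depended on the type of run, which bears on how much of a level rests on part of the data. The column headings divide the 4 runs of a library into 2 named T and 2 named TH. In BLK.CL4, 355 signatures of the set (14.5%) had no count in any T run and 294 (12.0%) none in any TH run, although every one of them passed 10 CPM in all 3 libraries. Over all 4138 signatures with 10 CPM in every BLK.CL4 library these shares were much the same, 14.1% and 11.8%. In liver 1406 signatures (57.6%) had counts from a single run type and 370 (15.2%) in only 1 of the 12 liver runs. Both types counted 1793 signatures in BLK.CL4, and 1020 in BLK.CL4 and liver alike.

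Signatures with no count in a run type often held a 4-base palindrome, a stretch that equals its own reverse complement, at particular places. The places, counted from 1 at the G of GATC, were taken from an earlier description of these data and are not independent evidence. Of 230 signatures of the set with a palindrome starting at position 3, 7, 11 or 15, 158 (68.7%) had no T count in BLK.CL4, against 197 of 2212 without (8.91%). Of 228 with a palindrome at position 4, 8, 12 or 16, 149 (65.4%) had no TH count, against 145 of 2214 (6.55%). The shares with such palindromes, 9.42% and 9.34%, were close to those of all 4138 signatures, 9.67% and 9.40%.

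The following 4, chosen after their values were seen as the most unequal between run types in BLK.CL4, show the pattern at high counts:
TH1: GATCgagagggcaaaccacg
TH2: GATCtgtgctatctatgctt
T1: GATCgtttcaaggtcatgaa
T2: GATCtttaaccttgcagctg
TH1 had 15784 counts in TH runs of BLK.CL4 and 0 in T runs, and 323 and 0 in liver, and a palindrome of its begins at position 3. TH2 had 8474 and 0 counts in BLK.CL4 and 71 and 0 in liver, and holds no palindrome beyond GATC. T1 had 5959 T counts and 0 TH counts in BLK.CL4, and 742 and 0 in liver. Its palindrome begins at position 15, a place that goes with missing T counts, so that T1 stands against the pattern of palindromes described above. T2 had 4270 and 0 counts in BLK.CL4 and 126 and 0 in liver, with palindromes at positions 6, 13 and 16. In all 4 the run type that had no BLK.CL4 count had no liver count either.

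Several signatures with extreme ratios were also counted in a single run type. L1, with a palindrome at position 15, had 0 counts in T runs of either tissue, and 364 and 4494 counts in TH runs of BLK.CL4 and liver. A1, with one at position 11, had 1945 and 6 counts in TH runs and 0 in T runs. S3, with one at position 13, which is not among the places listed above, had no TH count and 129 and 619 T counts. S1, with one at position 12, had 96 T and 2 TH counts in BLK.CL4 and 560 and 0 in liver. R4 had 820 TH counts in BLK.CL4 and its single liver count in a TH run, with no T count in either tissue.

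**Figure D5:**
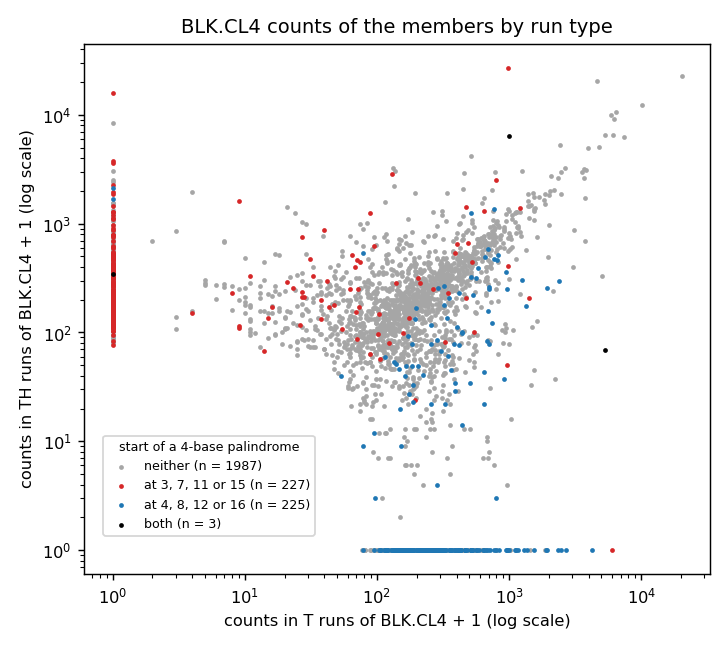
Counts of the 2442 signatures summed over the TH runs (vertical axis) and the T runs (horizontal axis) of the 3 BLK.CL4 libraries, each plus 1 and on log scales, coloured by where a 4-base palindrome starts. The points on the left and lower edges are the 355 signatures with no T count and the 294 with no TH count.

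A test of T against TH runs, which the rule for the set did not use, passed no signature in edgeR as designed. Over the 9115 signatures, with the 2 runs of a type summed per library and the library as a block, edgeR's quasi-likelihood test gave 0 calls (0% of those tested, and 0 of the set), with a lowest adjusted p of 0.0534. At an unadjusted p under 0.05 it gave 4041 signatures, 1148 of them in the set (47.0% of the set, against 44.3% of all). DESeq2 called 1736 signatures, 787 of them in the set (459 higher in TH and 328 higher in T runs). That is 32.2% of the set against 19% of all tested, and 1414 signatures were given no adjusted p by DESeq2. At 25 CPM in 3 libraries edgeR itself called 17 signatures of the set as higher in T runs and 26 as higher in TH runs. These were among 1579 of the set tested, against 53 and 80 of all 3716 tested. With no filter it called 55 and 76 of the 2442, against 227 and 286 of all 69349. Whether run types differ for single signatures of the set thus depends on the tool and on the filter.

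The ratios between tissues were similar in the run types taken alone. In T runs 1605 signatures of the set were counted in both tissues, with a median ratio of 8.04, and in TH runs 1854 were, with a median of 7.95. From all runs the medians over the same signatures were 7.91 and 7.80. The Spearman correlation between liver and BLK.CL4 levels was 0.339 in T runs and 0.351 in TH runs over these signatures. In T runs 482 signatures were counted in BLK.CL4 only and in TH runs 294.

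Near-identical partners were common and differed mostly at the last base. For 1173 of the 2442 signatures (48.0%) the files also listed a signature that differed only at position 20, and for 410 (16.8%) one that differed only at position 19, against 58 to 189 for each of positions 5 to 18. A partner at position 20 had at least as many liver counts as the member for 189 signatures, against 1 to 10 at each other position. Over all positions, a partner with at least 10 times the member's own counts was listed in liver for 51 signatures (2.09%) and in BLK.CL4 for 39 (1.60%). The shares were 2.63% and 1.84% over all 4138 signatures with 10 CPM in every BLK.CL4 library. They were 0.635% and 1.16% in the 945 with 10 CPM in every liver library. Such partners cannot be told apart here as alleles, related genes or miscalled bases, and their part in the levels of the set was not tested.

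Several of the liver-high signatures named above belonged to such pairs, which are printed with the partner's substitution, the member's base first:
L1 partner, C20G: GATCtgagttcagaccggag
L2 partner, T20G: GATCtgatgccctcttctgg
S2 partner, T20A: GATCattttggtatgtccta
S3 partner, C19T: GATCttcccgttggccgctc
The partner of L1 had 113, 4973 and 342 counts in liver replicates 1, 2 and 3, close to the 0, 4219 and 275 of L1, but 8886 counts in BLK.CL4 against 364. The partner of L2 had 370, 1767 and 1037 counts in liver, where L2 had 0, 1653 and 1148, and 7094 in BLK.CL4 against 2443. The partner of S2 had 151, 112 and 401 counts in liver, where S2 had 0, 105 and 536. In each of these 3 pairs the partner was counted in liver replicate 1 and the member was not. The partner of S3 was far more abundant in both tissues, with 5511, 2009 and 8428 counts in the liver replicates against 263, 0 and 356 and 10122 in BLK.CL4 against 129.

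With signatures merged on their first 19 bases, 2343 of the 2442 (95.9%) still met the rule and the other 99 reached 10 CPM in all liver libraries. The merged set held 2358 signatures, and its log2 ratio of summed levels was 3.15, against 3.07 for full-length signatures.

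The thresholds of the rule cut through a continuous range. Just inside the BLK.CL4 threshold lay GATCaaagaggctgctgtct, at 10.1, 80.4 and 36.6 CPM, and GATCaagaatggagcaggag, at 10.1, 41.4 and 21.5 CPM. Just outside lay GATCaaaagtgcccaagaaa, at 52.9, 9.75 and 60.3 CPM, and GATCaattgtgaacctgtgg, at 22.2, 9.75 and 39.3 CPM. At the liver threshold, GATCcctgccgaggtgctca stood just inside at 59.1, 9.98 and 11.5 CPM and GATCacctctagacagcccc at 9.86, 21.5 and 18.0 CPM. GATCcatgctgtgcgctacc stood just outside at 28.4, 11.5 and 10.2 CPM, as did GATCccagccctcccctcgc at 15.7, 41.9 and 10.2 CPM. For each of these 8 signatures the levels of a group spread over a wider range than the distance of its lowest library from 10 CPM.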

How the data were processed

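The files hold raw counts of beads that the authors deposited for each signature in each run, per the file headers. Per the labels' protocols, cDNA was cut with DpnII, the 20-base fragment at the 3'-most site was cloned, and beads were sequenced. A conversion to relative abundance that the labels describe was not applied to these counts, and the base caller and filters are not given in the sources used here. For each library the 4 runs were added up, a signature not listed was given 0, and CPM used library totals. Bead counts come from amplified molecules, so the Poisson intervals and the floors cover counting error only. The p-values reflect no more than the variation among these 6 libraries, and that may be technical.

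The 9115 signatures that reached 10 CPM in 2 or more libraries entered the quasi-likelihood test of edgeR 4.0.16 under R 4.3.3 (TMM factors, prior count 5 for fold changes, Benjamini-Hochberg threshold 0.05), with group as the only term, or with library and run type. DESeq2 1.42.0 was an alternative. On simulated counts with 200 changed signatures of 9115, the test between groups recovered 13% of 16-fold and 99.5% of 256-fold changes, and that between run types 68% and 100%. The simulated counts had the same assumed noise level for every signature, which was not estimated from these data. The rates therefore hold for that noise level and do not measure the sensitivity of the tests on these data. Python 3.11.15, pandas 2.3.3 and scipy 1.17.1 were used otherwise.

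The set and the lists were chosen with earlier results of these data known. Named are the 5 signatures with the highest mean in each group, the largest ratio (overall and among those counted in all liver libraries) and the smallest ratio, and the 2 nearest each side of each threshold. The rule also asked for signatures that the edgeR test called between run types, and this test called 0, so 4 were chosen after their values were seen. Signatures were not matched to genes, so marker lists were not used here.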

Additional observations from a re-analysis of the deposited data

How the results depend on the processing

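The number of signatures was 2442, the log2 ratio of summed levels 3.07 and the Spearman correlation 0.289. No alternative reversed the sign of the ratio or of the correlation. For the ratio this goes with the rule, which asks for 10 CPM in every BLK.CL4 library and a low level in at least 1 liver library. Leaving out each library gave 1971 to 2951 signatures, log2 ratios of 2.98 to 3.40 and Spearman correlations of 0.222 (without liver replicate 1) to 0.307. The rule was met by 2850 signatures at 5 CPM, 1862 at 20 CPM, 1801 from T runs alone and 1840 from TH runs alone. With TMM scaling throughout, 1665 met it. The log2 ratio fell to 1.92 with TMM scaling throughout, over those 1665 signatures. With TMM scaling and the same 2442 signatures it fell to 1.63, a setting chosen after seeing the data, as was merging on 19 bases. The share counted in only 1 liver library (28.1%) was 33.8% at 5 CPM, 22.1% at 20 CPM, 40.7% from T runs alone, 34.5% from TH runs alone and 42.4% when a signature had to be seen in at least 2 runs. It was 30.2% to 62.5% without single libraries, the values from 45.8% up being those with a liver library left out.

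All signatures passing between the groups numbered 2732, against 1322 from T runs alone, 1377 from TH runs alone, 1416 at 25 CPM in 3 libraries, 1447 with signatures in at least 2 runs and 1797 (without liver replicate 3) to 2226 without single libraries. The 209 of the set (8.56%, against 15.1% of all) became 599 with DESeq2 (24.5%, against 22.7%), 651 with library totals (26.7%, against 25%), 138 with no filter (5.65%, against 0.845%), 317 with signatures in at least 2 runs (13.0%, against 9.34%) and 91 (without BLK.CL4 replicate 1) to 359 (without liver replicate 3) with single libraries left out. Run types passed 1736 signatures with DESeq2, 133 at 25 CPM in 3 libraries, 16 with library totals, 513 with no filter and 0 to 6 (without liver replicate 1) with single libraries left out. For none of these changes was the cause tested. The labels give no replicate numbers. With a replicate block that paired libraries through their code letters, which the labels do not settle, 1914 signatures passed in either direction, and 275 of the set (11.3%, against 7.42% of all) as higher in BLK.CL4. Depth limits levels below 1.23 to 1.74 CPM.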
